A study of Rattus norvegicus with 4 samples.

Results

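The Slc25 family of mitochondrial carriers was followed in rat kidneys from an ex vivo model of donation after cardiac death. Members were all probe sets of the array whose single annotation symbol starts with Slc25a, and where a gene had several, the brightest by its mean value was read. By this rule there were 40 Slc25 genes, with 58 probe sets, among 14218 genes on the array. The array median over all values, 4.51 on the log2 scale, served as a floor under which a value carries little signal. Of the 40 genes, 33 were above it on all 4 arrays and 7 were below it on all 4. Slc25a18, Slc25a27, Slc25a31, Slc25a32, Slc25a34, Slc25a41 and Slc25a53 are the 7 genes below it. The nearest measured members were Slc25a14, with values from 5.88 to 6.04, and Slc25a21, from 6.15 to 6.20. The nearest unmeasured member was Slc25a34, at 2.52 on all 4 arrays. A pair of further probe sets carries the symbol Slc25a51 under several gene identifiers and was not used.

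The kidneys came from male Wistar rats of 300 to 480 g and had been through 29 min of warm ischaemia in the body. Machine perfusion followed in all 4 groups, for 3 h and in the cold, with University of Wisconsin solution, an organ preservation fluid. The cold group stopped there, and the warm group went on to 30 min of perfusion with warm, oxygenated Krebs-Henseleit buffer, which stands in for reperfusion. The heparin and PPS groups were treated like the warm group, with 10 IU/ml of low molecular weight heparin or of PPS, given in the labels by its abbreviation only, in both perfusates. Each group is 1 Affymetrix array hybridised with RNA pooled from 3 kidneys, so no spread between animals or arrays can be given, and differences between 2 arrays have no test. A gene was counted as higher or lower at 2-fold, a log2 difference of 1, and a 1.5-fold limit, a log2 difference of 0.58, was used as well.

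Carriers of this family sit in the inner mitochondrial membrane, which is closed to most metabolites. They exchange ADP for ATP, bring in phosphate, and pass citrate, malate, aspartate, acylcarnitines, nucleotides, cofactors and iron between the matrix and the cytosol. The proximal tubule, which makes up much of the kidney cortex, is packed with mitochondria and relies on this traffic for ATP, gluconeogenesis and ammonia production.

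The 4 arrays had near-equal median log2 values, from 4.50 to 4.54, but 2 technical measures set the cold array apart. Poly-A controls, which are bacterial RNAs spiked in ahead of labelling and are read by 24 probe sets, were brighter than on the cold array by medians of 1.25 (warm), 1.28 (heparin) and 1.10 (PPS). The gap between the 3' and 5' probe sets of beta-actin, a measure of RNA quality, was 2.79 on the cold array and between 3.19 and 3.39 on the other 3. Scaling the arrays to these controls moved the median gene to -1.19 in warm minus cold. Every difference from the cold array below is therefore relative to the bulk of genes, and its part due to RNA quality or labelling was not tested. Proximal tubule markers identified the tissue, with all 11 above the floor, while all 5 fat cell markers, all 4 skeletal muscle markers and the 3 adrenal markers on the array were below it.

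Most carriers differed little between arrays, and 1 gene, Slc25a25, stood out. The whole range over the 4 arrays was under 0.5 log2 units for 28 of the 33 measured genes. This count was not made over all genes, so it does not set the family apart. The median size of the warm minus cold difference was 0.20 for the carriers and 0.17 for all genes. In warm minus cold, 1 of 33 Slc25 genes was higher by 2-fold or more, against 2.48% of the 9394 genes analysed, and 0 were lower, against 1.16%. At 1.5-fold, 1 was higher (6.81% of all genes) and 1 was lower (4.05%). After poly-A scaling 0 were higher and 28 were lower by 2-fold or more, since that scaling lowers all genes. The family thus had few genes past either limit, as had the array as a whole.

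Slc25a25 encodes a calcium-regulated carrier that exchanges ATP-Mg for phosphate and so sets the pool of adenine nucleotides in the matrix. Its log2 value was 8.83 (cold), 9.88 (warm), 8.25 (heparin) and 8.63 (PPS). The warm array was the high one, and both supplemented arrays lay below the cold array. Warm exceeded cold by 1.05, or 2.07-fold, a difference that 213 of 9394 genes reached or passed. It turned to -0.14 after poly-A scaling, which leaves it as far above the median gene as before. Heparin was 1.63 below warm, a log2 difference of -1.63 or 3.10-fold, which 40 genes reached or passed. PPS differed from warm by -1.24, or 2.37-fold, which 110 genes reached or passed. These 2 comparisons and warm minus cold share the warm array, so a value that is high there by chance would enter all of them. Without the warm array no difference of this gene passed 1.5-fold. Heparin minus cold was -0.582, just short of that limit of 0.585, and PPS minus cold was -0.20. The gene has 1 probe set on the array, and no second reading is at hand.

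Slc25a33, a carrier of pyrimidine nucleotides, was also highest on the warm array and below the cold value on both supplemented arrays. Its log2 value was 7.51 (cold), 7.93 (warm), 7.41 (heparin) and 7.16 (PPS). PPS was the lowest here, where heparin was the lowest for Slc25a25. Warm minus cold was 0.42, within the 1.5-fold limit and -0.77 after poly-A scaling. Heparin minus warm was -0.52, short of that limit, and -0.60 after poly-A scaling, past it. PPS minus warm was -0.76, or 1.70-fold, past the 1.5-fold limit. This gene also has 1 probe set.

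**Figure D1:**
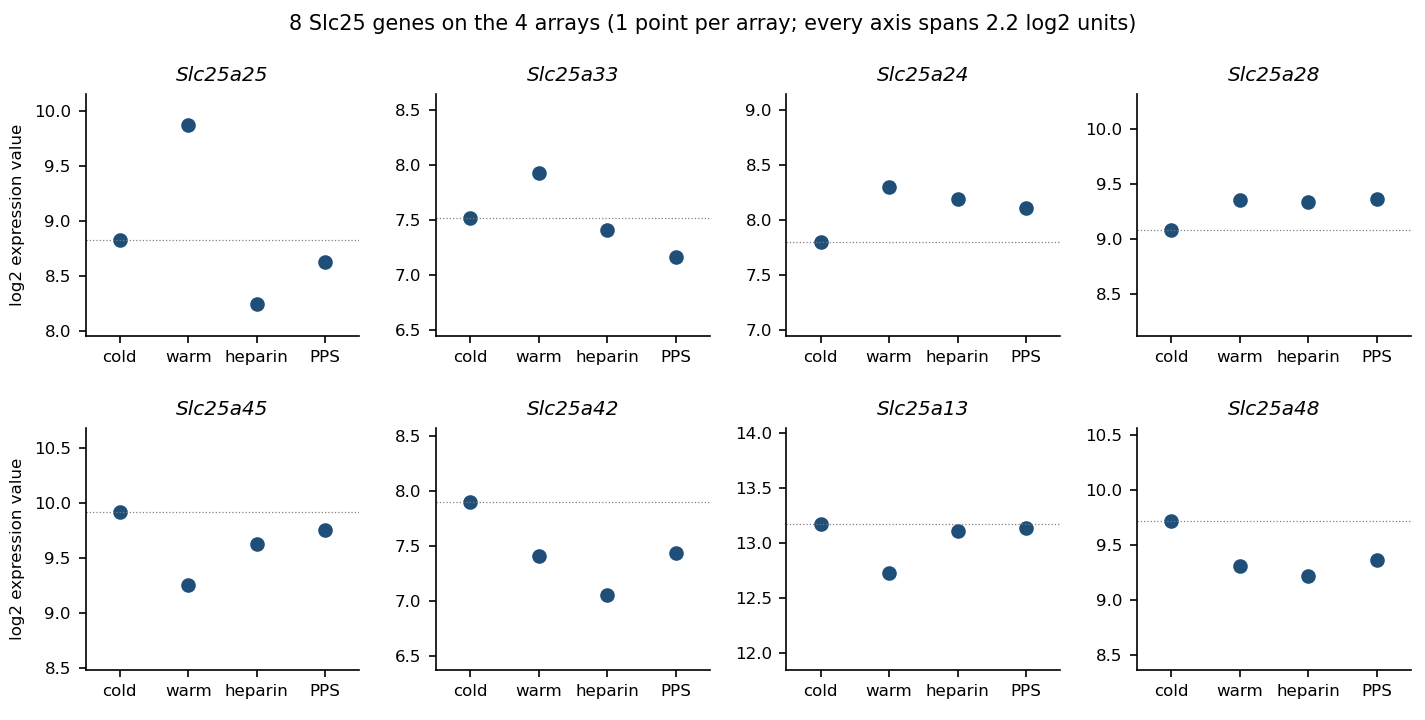
Log2 expression value (vertical axes, each spanning the same width) on the cold, warm, heparin and PPS arrays for 8 Slc25 genes. Each point is 1 array of RNA pooled from 3 kidneys, so no error can be drawn, and the dotted line marks the cold array. Slc25a25 and Slc25a33 are highest on the warm array, Slc25a24 and Slc25a28 are above the cold value on all 3 other arrays, and the genes in the lower row are below it on all 3. With arrays scaled to poly-A controls, each gene shown has a lower warm than cold value.

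Promoter windows were looked up because these 2 genes were both highest on the warm array and lowest with the supplements. Slc25a36 had the same order at smaller sizes, with a warm minus cold difference of 0.02, and no window was found for it. Whether the element goes with this order can therefore not be read from the 2 genes. RefSeq windows on the rat assembly GRCr8, 250 bases before to 50 bases after the annotated gene start, were found for 34 of the 40 genes and for 28 of the 33 measured ones. Slc25a30, Slc25a32, Slc25a36, Slc25a37, Slc25a46 and Slc25a51l1 were not matched. The cAMP response element TGACGTCA, the site to which CREB and related factors are known to bind, was found in 2 of the 28 windows, those of Slc25a25 and Slc25a33. It is held by 1.83% of all 33469 windows in the table. Capitals mark it in the windows below, and that of Slc25a45, the carrier with the largest negative warm minus cold difference, is shown for contrast.
Slc25a25 promoter window, chr3:36116532-36116831 (- strand): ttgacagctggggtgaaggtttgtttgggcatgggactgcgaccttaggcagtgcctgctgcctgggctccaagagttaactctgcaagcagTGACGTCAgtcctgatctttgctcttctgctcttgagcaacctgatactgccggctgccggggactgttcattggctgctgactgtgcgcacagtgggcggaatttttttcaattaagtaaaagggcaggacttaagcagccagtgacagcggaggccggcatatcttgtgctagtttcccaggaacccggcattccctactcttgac
Slc25a33 promoter window, chr5:165502924-165503223 (- strand): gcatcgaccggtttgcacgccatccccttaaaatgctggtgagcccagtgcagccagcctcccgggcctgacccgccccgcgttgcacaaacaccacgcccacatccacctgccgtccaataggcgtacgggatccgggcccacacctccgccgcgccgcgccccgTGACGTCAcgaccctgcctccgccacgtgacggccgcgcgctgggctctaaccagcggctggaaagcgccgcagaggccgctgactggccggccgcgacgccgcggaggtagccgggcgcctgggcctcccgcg
Slc25a45 promoter window, chr1:212596601-212596900 (+ strand): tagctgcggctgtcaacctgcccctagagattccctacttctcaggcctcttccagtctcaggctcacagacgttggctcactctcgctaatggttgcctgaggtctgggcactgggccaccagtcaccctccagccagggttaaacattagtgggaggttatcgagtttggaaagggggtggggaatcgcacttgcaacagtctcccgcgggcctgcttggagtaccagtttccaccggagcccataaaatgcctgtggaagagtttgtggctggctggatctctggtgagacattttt
The element starts 158 bases before the annotated start of Slc25a25 and 84 bases before that of Slc25a33. It reads the same on both strands. The Slc25a45 window holds no match to it. A match describes these letters only, and Slc25a25 is annotated with several transcripts that may start elsewhere.

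Another 8 motifs were searched on both strands in the same windows. The CCAAT box, with the letters CCAAT, was found in 17 of the 28 measured carriers with a window (37.5% of all windows) and stands in those of both Slc25a25 and Slc25a33. The ETS site CCGGAAG, to which the mitochondrial gene regulator GABP is known to bind, was found in 6 (8.75% of all windows), among them Slc25a3, Slc25a4 and Slc25a20. The EGR site GCGNGGGCG was found in 6 (4.98%) and the E-box CACGTG in 2 (6.42%), Slc25a33 and Slc25a48. The NF-kappaB site was found in 7 (19.3%) and the AP-1 site TGANTCA in 1 (7.33%), Slc25a11. No window of a measured carrier held the NRF-1 site (4.25%) or the ERR site TNAAGGTCA (1.20%). 

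The ADP/ATP carriers, which hand newly made ATP to the cytosol, differed by little. Slc25a5 had log2 values of 14.84 (cold), 14.75 (warm), 14.73 (heparin) and 14.71 (PPS). Slc25a4, the form typical of heart and muscle, had 12.83, 12.66, 12.71 and 12.70. For both, the cold array was the highest by a small margin, -0.08 and -0.17 in warm minus cold, and the other 3 were nearly level. The phosphate carrier Slc25a3, which supplies the ATP synthase, was at 14.40, 14.37, 14.23 and 14.25, a spread of less than 0.2.

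The other calcium-regulated ATP-Mg/phosphate carriers did not share the order of Slc25a25. Slc25a24 had log2 values of 7.80 (cold), 8.30 (warm), 8.19 (heparin) and 8.11 (PPS). It was above the cold value on all 3 warm-perfused arrays, by 0.51 in warm minus cold, and heparin (-0.12) and PPS (-0.19) differed little from warm. Slc25a23 was at 11.32, 11.27, 11.14 and 11.50, with PPS the highest and heparin the lowest. Poly-A scaling turned the warm minus cold difference of Slc25a24, like that of each other measured carrier, negative.

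Of 4 carriers of citric acid cycle intermediates and related acids, 3 were slightly lower on the warm than on the cold array (all 4 after poly-A scaling). Of all genes, 50.7% were lower in that comparison (98.1% after poly-A scaling). Slc25a1, which exports citrate for lipid synthesis, was at 10.49 (cold), 10.27 (warm), 10.20 (heparin) and 10.36 (PPS). Slc25a11, the oxoglutarate/malate carrier, was at 12.33, 12.08, 12.00 and 12.16. Both were highest on the cold and lowest on the heparin array. Slc25a10, the dicarboxylate carrier, was at 11.87, 11.78, 11.61 and 11.96, with PPS the highest. A second probe set of Slc25a10 gave 0.04 in warm minus cold where the chosen one gave -0.09, so that direction rests on the probe set. Slc25a21, a carrier of oxodicarboxylates, stayed between 6.15 and 6.20. All 4 carriers had a positive difference in PPS minus warm (median 0.09), where 46.8% of all genes were higher. All 4 had a negative one in heparin minus PPS (median -0.15), where 43.5% of all genes were lower. Each was within the limits.

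Among 7 measured amino acid carriers, 5 were lower on the warm than on the cold array, with a median of -0.24 (all 7 lower after poly-A scaling). Over all genes the share lower was 50.7% (98.1% after poly-A scaling). Slc25a13, or citrin, moves aspartate and glutamate in the malate-aspartate shuttle. Its values were 13.18 (cold), 12.73 (warm), 13.11 (heparin) and 13.14 (PPS). The warm array was the low one, -0.45 against cold, and in this probe set the supplemented arrays were within 0.1 of the cold value. A second probe set of the gene gave -0.75 for warm against cold, and 0.23 (heparin) and 0.36 (PPS) against warm. Its supplemented values stayed below cold, by -0.52 (heparin) and -0.39 (PPS), so both probe sets had warm as the lowest array but only the chosen one came back near the cold value. Slc25a12, the other aspartate/glutamate carrier, did not show this order, with 9.42, 9.58, 9.61 and 9.45.

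Slc25a15, the ornithine carrier, was read by 5 probe sets above the floor, and all 5 were lower on the warm than on the cold array, by -0.24 to -0.86 (all lower after poly-A scaling too). The chosen one had the smallest of these differences, and the only one past the 1.5-fold limit was the dimmest of the 5. All 5 were higher with heparin than on the warm array, by 0.18 to 0.32. With PPS they were split, with 4 above and 1 below the warm value, from -0.14 to 0.29. The probe sets thus gave the same direction in warm minus cold, at sizes that differed widely, and in heparin minus warm.

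Slc25a38 imports glycine for heme synthesis. Its values were 8.63 (cold), 8.21 (warm), 8.37 (heparin) and 8.21 (PPS), so that the cold array was highest and no supplemented array reached it. Slc25a29, a carrier of basic amino acids, had 8.36, 8.11, 8.18 and 8.32. Slc25a44, a carrier of branched-chain amino acids, had 8.23, 8.03, 7.95 and 8.09, with heparin the lowest. Its other probe set was highest with heparin, at 7.41, 7.36, 7.66 and 7.45, so the place of the heparin array rests on the probe set. The glutamate carrier Slc25a22 varied by less than 0.03 over the 4 arrays.

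Slc25a20 exchanges acylcarnitines for carnitine and feeds fatty acid oxidation. It was at 10.45 (cold), 10.17 (warm), 10.24 (heparin) and 10.24 (PPS), a narrow group below the cold value. Cpt1a and Cpt2, the enzymes before and after this step, differed by 0.16 and 0.04 in warm minus cold.

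Carriers of cofactors and nucleotides went in both directions. Slc25a42, which brings coenzyme A into the matrix, was at 7.90 (cold), 7.41 (warm), 7.05 (heparin) and 7.44 (PPS). The cold array was highest and the heparin array lowest. Heparin minus cold was -0.85, the one difference of a carrier past 1.5-fold in that comparison, in which 2.98% of all genes were lower by as much. Its warm minus cold difference was -0.49, and PPS minus warm was 0.02. The gene has 1 probe set.

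Slc25a39, a carrier of glutathione, was at 13.12 on the cold array and between 12.84 and 12.95 on the others. Slc25a16 was at 10.61 on the cold array and between 10.76 and 10.87 on the others, and Slc25a17, a peroxisomal member that carries coenzyme A and other cofactors, stayed between 10.76 and 10.89. Slc25a36, the other pyrimidine nucleotide carrier, was at 10.76, 10.78, 10.74 and 10.60, lowest with PPS. It thus had its lowest value on the PPS array like Slc25a33, at a fraction of the size, and its second probe set gave -0.26 (heparin) and -0.25 (PPS) against warm.

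Slc25a28, or mitoferrin-2, and Slc25a37, or mitoferrin-1, import iron for heme and iron-sulfur clusters. Slc25a28 was at 9.08 (cold), 9.35 (warm), 9.33 (heparin) and 9.36 (PPS). The 3 warm-perfused arrays lay within 0.03 of each other, all above the cold value (below it after poly-A scaling). Slc25a37 was at 7.53, 7.68, 7.40 and 7.61, with cold inside the range of the others. Hbb, the haemoglobin chain measured as a marker of remaining red blood cells, was at 9.85, 8.71, 8.20 and 9.22, a different order from both.

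Of the relatives of the uncoupling proteins, Slc25a30, first described as a kidney mitochondrial carrier, was at 12.51, 12.54, 12.72 and 12.59. A second probe set gave -0.50 in warm minus cold where the chosen one gave 0.03, so the direction for this gene rests on the probe set. Slc25a14 was at 6.04 on the cold array and between 5.88 and 5.89 on the others. Ucp2, an uncoupling protein that belongs to the family under another name, was at 7.55, 8.07, 7.07 and 8.09. Heparin was the low array for Ucp2, past 2-fold against warm and -1.02 against PPS.

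Orphan members, with less settled substrates, held the carrier with the largest negative warm minus cold difference. Slc25a45 was at 9.92 (cold), 9.25 (warm), 9.63 (heparin) and 9.76 (PPS). Warm was the lowest, -0.66 or 1.58-fold against cold, which 283 of 9394 genes reached or passed in that direction. Heparin and PPS lay between, 0.37 and 0.50 above warm. Slc25a48 was at 9.72, 9.31, 9.22 and 9.36, with the 3 warm-perfused arrays close together below the cold one. Slc25a51l1 was at 10.63, 10.33, 10.37 and 10.37, in the same arrangement, and Slc25a35 at 8.02, 8.36, 8.10 and 8.37. Slc25a46, an outer membrane protein, was at 10.75, 10.63, 10.93 and 10.68, highest with heparin. Its second probe set was highest on the cold array instead, at 9.21, 8.96, 9.02 and 9.10, and gave -0.08 in heparin minus PPS where the chosen one gave 0.26.

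**Figure D2:**
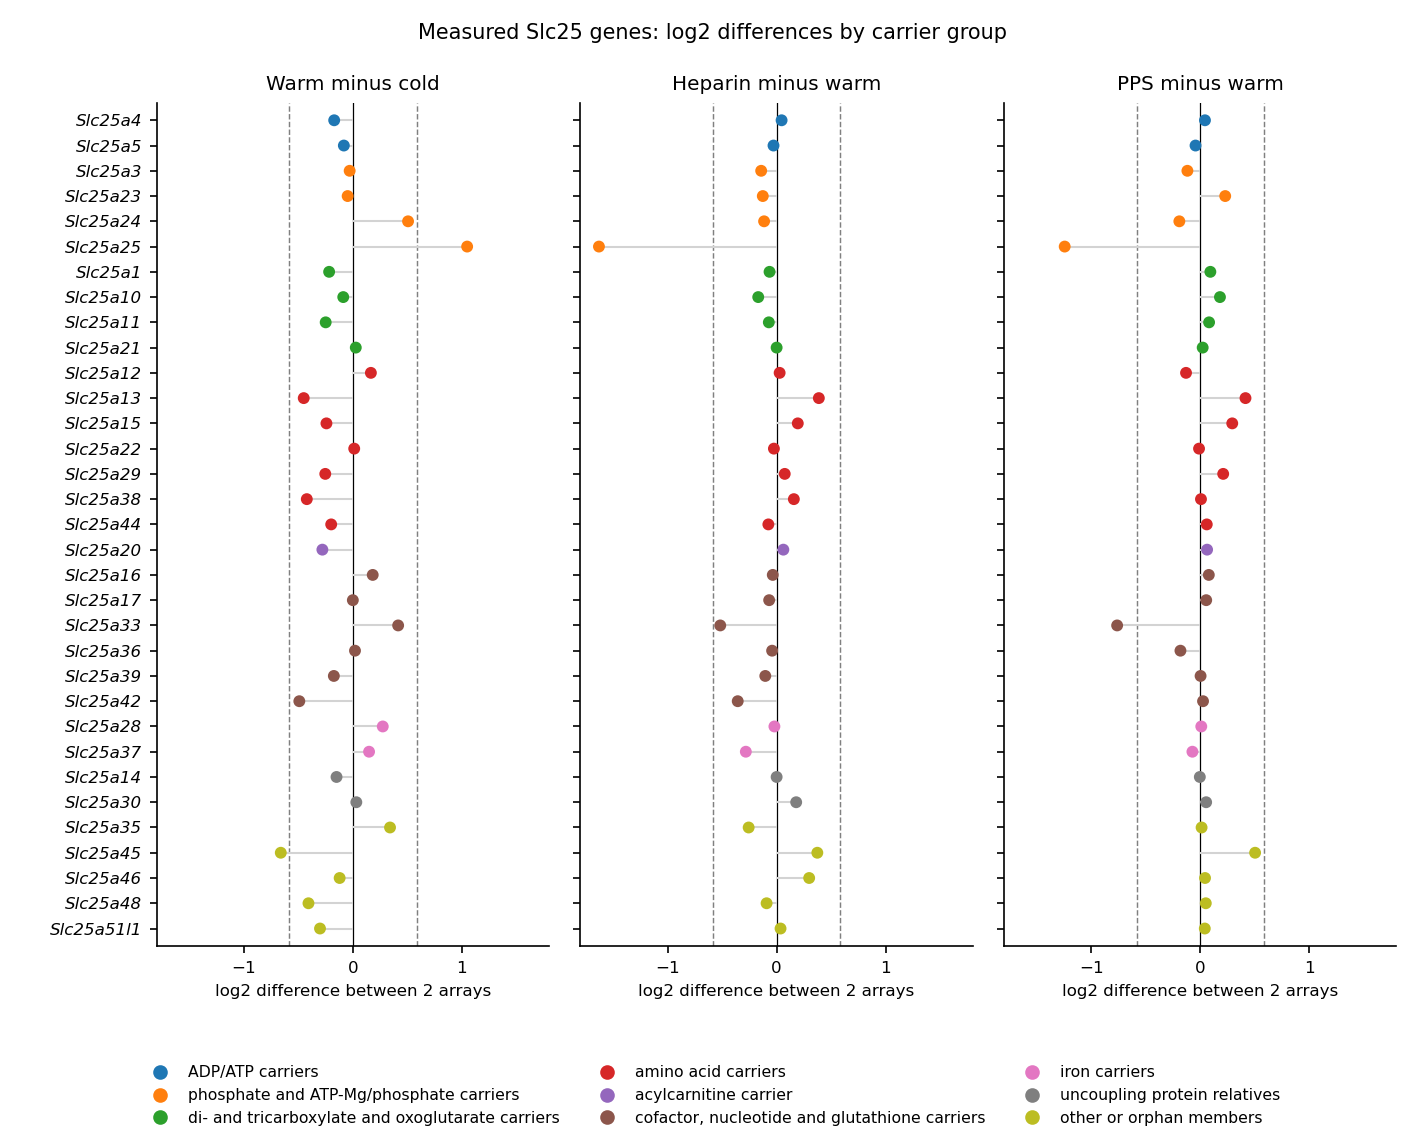
Log2 difference between 2 arrays (horizontal axes) for the 33 measured Slc25 genes (rows), coloured by what they carry, with panels for warm against cold, heparin against warm and PPS against warm. Dashed lines mark 1.5-fold, and 1 point is 1 gene, with no error because each group is 1 array. Slc25a25 lies outside the lines in all 3 panels, Slc25a45 in the first and Slc25a33 in the third, and all other genes lie within them. All 3 panels use the same warm array. After poly-A scaling all points of the first panel lie left of 0.

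Over the family, small differences leaned to lower values on the warm than on the cold array. There were 21 lower and 12 higher genes of 33, where 50.7% of all genes were lower and 46% higher. The median log2 difference was -0.09, against -0.0033 over all genes, and -0.11 without Slc25a25. With arrays centred on their medians 22 were lower and 11 higher, where 57.3% of all genes were lower. After poly-A scaling 33 were lower and 0 higher, where 98.1% of all genes were lower. In heparin minus warm 20 were lower (46.3% of all genes) and 11 higher (49.9%), with a median of -0.04. With the mean over all probe sets of a gene this split shrank to 17 lower (47.1% of all genes) and 14 higher (49.6%). After poly-A scaling 27 were lower and 6 higher, where 64.0% of all genes were lower and 31.1% higher.

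In PPS minus warm the split went the other way, with 23 higher (46.8% of all genes) and 10 lower (49.4%), and a median of 0.04. It was 26 to 7 with arrays centred on their medians, where 62.1% of all genes were higher. It was 27 to 6 after poly-A scaling, where 70.6% of all genes were higher. In heparin minus PPS, at matched doses in units per volume, 23 were lower (43.5% of all genes) and 10 higher (51.7%), with a median of -0.03. That split was 31 to 2 after poly-A scaling, where 81.2% of all genes were lower and 14.2% higher. With the mean over all probe sets of a gene it was 20 lower (44.8% of all genes) and 13 higher (51.2%). PPS minus warm and heparin minus PPS share the PPS array, so their splits are not independent.

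At the size limits the supplements differed from warm in few carriers. In heparin minus warm 1 of 33 was lower by 2-fold or more, Slc25a25 (1.48% of all genes), and 0 were higher (0.383%). At 1.5-fold 1 was lower (3.91%) and 0 were higher (1.69%). In PPS minus warm 1 was lower by 2-fold or more, again Slc25a25 (1.71%), and 0 were higher (0.511%), while at 1.5-fold 2 were lower (3.73%), Slc25a25 and Slc25a33, and 0 were higher (1.78%). Between heparin and PPS no carrier passed either limit. The largest differences there were -0.39 for Slc25a25, -0.38 for Slc25a42, -0.36 for Slc25a23 and -0.35 for Slc25a10, and on the other side 0.26 for Slc25a46 and 0.25 for Slc25a33. Of all genes, 0.192% were higher and 0.298% lower with heparin than with PPS by 2-fold or more, and 1.29% higher and 1.39% lower by 1.5-fold or more. With 1 array a group, this does not show that the supplements act alike on these genes.

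Against the cold array, the supplemented arrays had more lower than higher carriers. In heparin minus cold 25 of 33 were lower (48.9% of all genes) and 8 higher (47.6%), with a median of -0.13. By 2-fold or more 0 were higher (1.17%) and 0 lower (0.915%), and by 1.5-fold or more 0 were higher (3.67%) and 1 lower, Slc25a42 (2.98%). In PPS minus cold 20 were lower (51% of all genes) and 12 higher (45.3%), with a median of -0.13. None passed 2-fold (1.03% of all genes higher, 0.788% lower) or 1.5-fold (3.48% higher, 3.2% lower). All the positive differences here, the largest being 0.39 for Slc25a24 with heparin, are smaller than the poly-A shifts of 1.28 and 1.10. These comparisons share the cold array with each other and with warm minus cold.

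**Figure D3:**
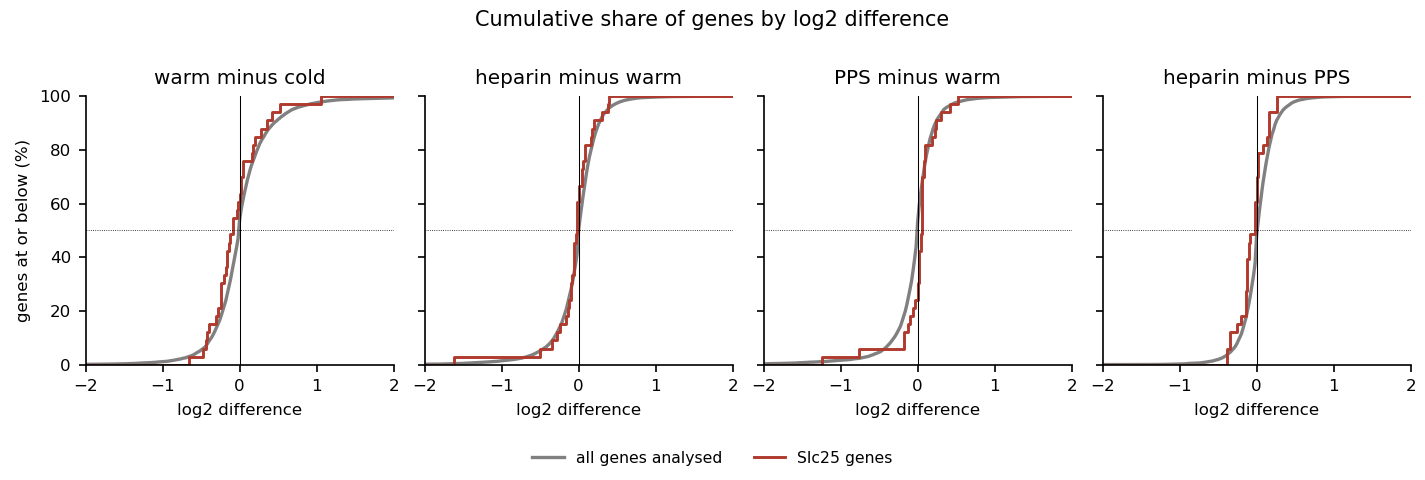
Share of genes at or below a given log2 difference (vertical axes, percent) against the log2 difference (horizontal axes) in 4 comparisons, for the 33 measured Slc25 genes (red steps) and all 9394 genes analysed (grey). At a difference of 0 or less lie 63.6% of Slc25 genes and 54.0% of all genes in warm minus cold, 66.7% and 50.1% for heparin against warm, 30.3% and 53.1% for PPS against warm, and 69.7% and 48.3% for heparin against PPS, while the curves meet in the tails. Scaling to the poly-A controls would move both curves of a panel together, furthest in the first.

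All 3 warm-perfused arrays were also set against the cold array in 1 limma fit, which takes the supplements as replicates of warm perfusion and the lone cold array to vary like them. At a Benjamini-Hochberg adjusted p under 0.05 it called 0 of 33 Slc25 genes and 1 of 9394 genes, 0.0106%. At an unadjusted p under 0.05 there were 7 Slc25 genes, against 16.2% of all genes. The lowest adjusted p of a carrier by limma was 0.217, for Slc25a28 (log2 difference 0.27, SE 0.05, higher on all 3 arrays). Slc25a51l1 (-0.28, SE 0.05) and Slc25a48 (-0.42, SE 0.08) followed, both lower on all 3 arrays. Slc25a25, with its opposite values on the warm and supplemented arrays, had 0.09 with an SE of 0.80. After poly-A scaling the same fit called 32 of the 33 carriers and 9343 of 9670 genes.

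The cold value lay above all 3 warm-perfused values for 16 of 33 carriers, against 33% of all genes, and below all 3 for 7, against 28.9%. For the other 10 it lay within their range. Among the 16 were both ADP/ATP carriers, Slc25a1, Slc25a11, Slc25a20, Slc25a38, Slc25a42 and Slc25a48. The 7 were Slc25a12, Slc25a16, Slc25a21, Slc25a24, Slc25a28, Slc25a30 and Slc25a35.

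Cell type markers moved between the same arrays, where 46% of all genes were higher and 50.7% lower in warm minus cold. Of 11 proximal tubule markers 10 were lower on the warm than on the cold array (median -0.23), and the log2 of their summed level was 17.68 (cold), 17.49 (warm), 17.44 (heparin) and 17.56 (PPS). All 6 thick ascending limb and distal tubule markers (median 0.51) and all 6 collecting duct markers (median 0.54) were higher on the warm than on the cold array, both medians being smaller than the poly-A shift of 1.25. All 3 podocyte markers above the floor were higher as well (median 1.01), and all 6 fibroblast, pericyte and smooth muscle markers were lower (median -1.30). The collecting duct markers were then all 6 lower than on the warm array with heparin (median -0.49) and with PPS (median -0.48). Of all genes, 46.3% (heparin) and 49.4% (PPS) were lower than on the warm array. These 6 markers were thus highest on the warm array like Slc25a25 and Slc25a33, but this order was not particular to the collecting duct. All 3 endothelium markers above the floor were higher on warm than on cold (median 0.33). They were lower than on warm with heparin (median -0.21) and with PPS (median -0.24). Umod, Slc12a3, Kcnj1, Calb1, Nphs1 and Wt1 were highest on the warm array too, while Slc12a1, Cldn16 and Podxl were not. Of the proximal tubule markers 9 of 11 were higher in PPS minus warm (median 0.11), against 46.8% of all genes. In heparin minus PPS 10 of 11 were lower (median -0.13), against 43.5% of all genes. Most carriers lay in the same directions in PPS minus warm and heparin minus PPS, which share the PPS array. In heparin minus warm these markers were split, 5 higher and 6 lower (median -0.0023), while 11 carriers were higher and 20 lower. Fewer cells of a type and less RNA per cell cannot be told apart in whole kidney RNA, and the part of these shifts in the carrier values was not tested.

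Other genes of mitochondrial metabolism gave a scale for the carriers. None of 18 enzyme genes of the citric acid cycle, counting Pdha1 and Pdhb of pyruvate dehydrogenase, passed 1.5-fold in any of the 4 comparisons. In warm minus cold 6.81% of all genes were higher and 4.05% lower by as much. These shares were 1.69% and 3.91% in heparin minus warm and 1.78% and 3.73% in PPS minus warm. In heparin minus PPS they were 1.29% and 1.39%. Of the 18 genes, 14 were lower on the warm than on the cold array (50.7% of all genes), with a median of -0.13. The largest was Dlst (-0.51), a subunit of the oxoglutarate dehydrogenase complex. Of 17 other mitochondrial transport genes, 1 was higher by 2-fold or more in warm minus cold, against 2.48% of all genes. It was the inner membrane ABC transporter Abcb10, at 8.93 (cold), 10.36 (warm), 10.58 (heparin) and 10.55 (PPS). All 3 warm-perfused arrays were high for it, and the warm minus cold difference of 1.43 is larger than the poly-A shift of 1.25. Sfxn3, a sideroflexin, differed by 0.78, and the pyruvate carrier subunits Mpc1 and Mpc2 by -0.0012 and 0.02.

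Of 19 enzymes that work on either side of the carriers, 1 passed a limit in warm minus cold. It was lower by 2-fold or more, as were 1.16% of all genes. Gldc, which breaks down glycine in the matrix, was at 10.15 (cold), 8.93 (warm), 8.35 (heparin) and 8.71 (PPS). Cold was the high array, with a warm minus cold difference of -1.22. The glycine carrier Slc25a38 also had its highest value on the cold array, at a smaller size. It shared this with others, being 1 of 16 such carriers of 33, against 33% of all genes. The aspartate aminotransferases Got1 and Got2, partners of Slc25a13 in the shuttle, differed by -0.34 and -0.21 in warm minus cold, and Acly, which uses the citrate exported by Slc25a1, by -0.49. Of the 19 enzymes, 11 were lower and 8 higher in that comparison, against 50.7% and 46% of all genes. Among the higher ones were Arg2 (0.44) and Pck2 (0.22).

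**Figure D4:**
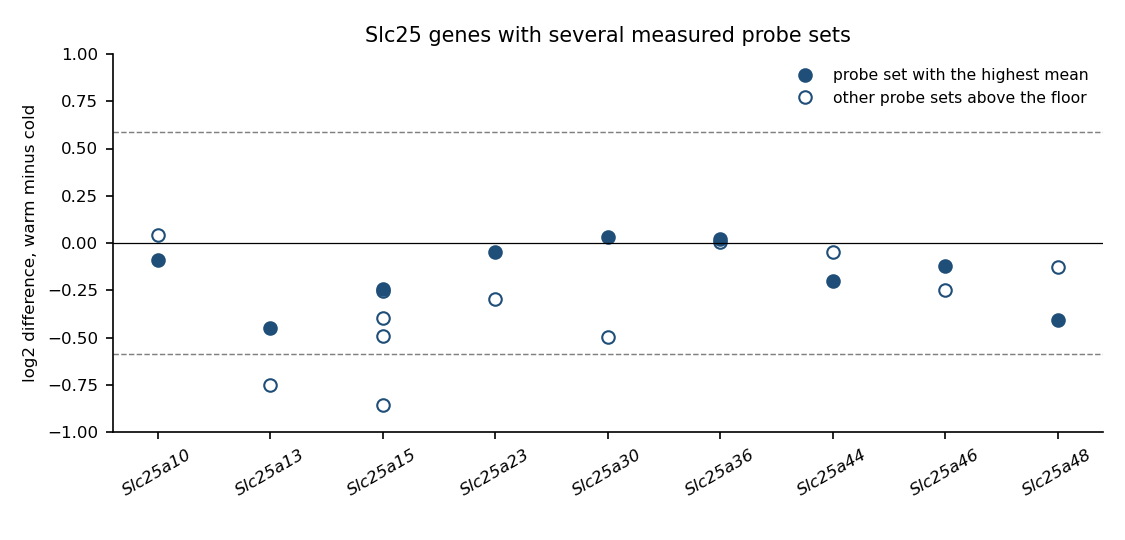
Log2 difference in warm minus cold (vertical axis) for each probe set above the floor of the 9 Slc25 genes that have several. Filled points are the chosen probe sets and open points the others, each a difference between 2 arrays, and dashed lines mark 1.5-fold. All 5 probe sets of Slc25a15 lie below 0, those of Slc25a10 and of Slc25a30 disagree in direction, and after poly-A scaling every point lies below 0.

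Readings from other probe sets were at hand for 9 of the 33 measured genes, in 12 further probe sets above the floor. In warm minus cold 10 of the 12 went the same way as the chosen probe set, and 2 passed 1.5-fold, 1 each of Slc25a13 and Slc25a15. Against warm, 9 of 12 (heparin) and 10 of 12 (PPS) went the same way, but between heparin and PPS 4 of 12 did.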

How the data were processed

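Kidney RNA was measured on 4 Affymetrix rat arrays, 1 per group, each from a pool of 3 kidneys. The authors deposited 1 log2 value for each probe set and array. Background correction, normalization and summary used GCRMA, per the submitters' processing notes, which name no version. That the scale is log2 was inferred from the range, 2.11 to 16.4. GCRMA makes arrays alike in distribution, so a shift in total messenger RNA would not be seen, and it draws dim probe sets together. Precision is limited by the number of arrays.

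Of 31099 probe sets, 20832 had 1 gene and 57 were controls. The platform annotation named probe sets, and names of other genes were updated to RefSeq GRCr8 by Entrez identifier. Each gene took its probe set with the highest mean. Values under the 50th percentile of all values, 4.51, were raised to it (not for limma), and 9394 genes above it on at least 1 array were analysed. Counts were set beside all genes. limma 3.58.1 in R 4.3.3 (lmFit, eBayes) was run across these genes, with 2 residual degrees of freedom, and tested on simulated data. Python 3.11.15 did the rest.

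Named genes are carriers past 1.5-fold in any comparison and the 5 largest differences per direction in each. Other carriers and partner enzymes with values (Arg2, Cpt1a, Cpt2, Got1, Got2, Mpc1, Mpc2, Pck2, Ppargc1a, Tfam) fall outside this rule and were chosen after values were seen. Members, lists and limits were chosen with earlier results of these data known. Motifs and the use of promoters were chosen after values were seen. Alternatives were another floor or none, the mean of probe sets, other scalings, updated symbols and, for limma, other settings and leaving out an array.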

Additional observations from a re-analysis of the deposited data

How the results depend on the processing

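Counts past the limits, medians and named differences were recomputed under 8 alternatives. Floors at the 40th and 60th percentile, no floor, centring on medians, quantile normalization and updated symbols left each count as it was and moved no median or named difference by 0.1 or more. With the mean over probe sets, Slc25 genes lower by 1.5-fold or more in warm minus cold were 2 in place of 1, and 13 of 76 named differences moved by 0.1 or more. Scaling to the poly-A controls moved most. In warm minus cold it gave 0 higher and 28 lower by 2-fold or more, 0 higher and 32 lower by 1.5-fold or more, a median of -1.28, and -0.14 for Slc25a25, turned from 1.05. In heparin minus warm it gave 2 lower by 1.5-fold or more. In PPS minus warm it gave 1 higher by 1.5-fold or more and a median of 0.15, and in heparin minus PPS a median of -0.22. By limma it called 32 carriers in place of 0. The cause of the poly-A shift was not tested. Leaving out 1 warm-perfused array at a time gave 0 carriers called by limma each time (4 to 6 at an unadjusted p under 0.05), as did the floor, trend and robust estimation, the mean of probe sets and quantile normalization (7 to 9). No paired analysis was possible because each group has 1 array and the labels give no replicate numbers. Without replicate arrays, none of the differences between 2 arrays can be set against chance.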

Other observations

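Regulators of mitochondrial gene expression, of which 12 of 14 listed genes were above the floor, had values that the comparisons above do not use. Ppargc1b, a coactivator of mitochondrial genes, was at 7.07 (cold), 7.74 (warm), 8.09 (heparin) and 8.08 (PPS), so that it was higher by 2-fold in heparin minus cold (1.02; 1.17% of all genes) and in PPS minus cold (1.01; 1.03% of all genes). Gabpa, which encodes a subunit of GABP, was at 9.14 on the cold array and at 10.06, 9.54 and 9.56 on the others. It was highest on the warm array like Slc25a25, but stayed above cold on both supplemented arrays, where Slc25a25 was below cold. The promoter window of Slc25a25 holds no match to the ETS site. Polrmt, the mitochondrial RNA polymerase, was at 6.53, 6.24, 5.90 and 5.62, lowest with PPS (-0.62 in PPS minus warm). Ppargc1a differed by 0.29 and Tfam, which packages mitochondrial DNA, by -0.21 in warm minus cold, both within the limits. Poly-A scaling lowers all differences from the cold array by about the shift of the median gene.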
